A study of Mus musculus with 4 samples.

Results

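Among myogenic progenitors (MPs) sorted from regenerating mouse muscle, a small group of cells held messenger RNA of both Pax7, the transcription factor that marks muscle stem cells (MuSCs), and myogenin (Myog), the factor that starts terminal differentiation. These transitional cells were chosen on the raw counts of unique molecular identifiers (UMIs, each standing for 1 captured RNA molecule). A member had at least 5000 UMIs and 1000 genes, at most 10% mitochondrial UMIs, no Cd74 UMI, at least 2 UMIs of Pax7 and at least 2 of Myog. Per 10000 UMIs, a member also had a sum of the 5 cell-cycle genes Top2a, Mki67, Cenpf, Rrm2 and Tyms below 2 and a sum of the 6 contractile genes Myh3, Myh8, Tnnc2, Mybph, Acta1 and Mylpf below 100. The rule found 406 of the 9611 cells that passed the limits on UMIs, genes and mitochondrial share: 189 cells came from replicate 1 and 83 from replicate 2 of Pax7Cre, and 65 from replicate 1 and 69 from replicate 2 of miR-501KO. No member shared its barcode with a barcode of another library, and 46 of all 16519 barcodes did.

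The study had 4 libraries in 2 groups, each library a pool of 3 mice aged 12 weeks, taken at day 6 after muscle injury by cardiotoxin, a toxin of snake venom that kills myofibers. The control mice carried Pax7Cre, the Cre recombinase under the Pax7 promoter, and the miR-501KO mice carried Pax7Cre with a floxed miR-501 allele (Pax7CremiR-501fl/Y), so that all animals carried the Cre and all were injured. The deletion was therefore limited to cells with a history of Pax7 expression. Cells of the tibialis anterior muscles of both hindlimbs were sorted for alpha7 integrin and against CD45, CD31 and Sca1, and replicates 1 and 2 were 2 separate runs.

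As background, adult MuSCs are kept as stem cells by Pax7 and by Notch signals from their surroundings. After an injury they divide as myoblasts with Myf5 and Myod1, leave the cell cycle, switch on myogenin and fuse into myotubes, and Pax7 is lost on the way. Cells with both Pax7 and myogenin RNA are therefore rare, and stand between a stem-like and a committed state. miR-501 is a microRNA made from an intron of Clcn5, which encodes a chloride transporter. Its mature sequences are shown because they are what the deletion removes. They are from RefSeq on GRCm38.p6 (mouse chromosome X, minus strand), with bases 2 to 8, the seed that pairs with targets, in capitals. The 3p strand lies at chrX:7241270-7241291 and the 5p strand at chrX:7241307-7241328, and their seeds differ.
mmu-miR-501-3p: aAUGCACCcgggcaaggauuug
mmu-miR-501-5p: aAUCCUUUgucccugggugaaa

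The kept cells had median totals of 25824.5 to 35544 UMIs per library. The 406 members had a median of 32299.5 UMIs (7095 to 116272), against 26648 in 1781 Pax7-only cells (at least 2 Pax7 UMIs, no Myog UMI, all other limits the same) and 33954.5 in 860 Myog-only cells (at least 2 Myog UMIs and no Pax7 UMI). These flanking populations held 462, 418, 394 and 507 and 362, 176, 156 and 166 cells. In this and later lists of 4 values the order is Pax7Cre replicates 1 and 2, then miR-501KO replicates 1 and 2. The sort excluded doublets and no doublet caller was run. Of the members, 8 were among the deepest 5% of their library's cells. Without those deepest cells, 461, 418, 391 and 507 Pax7-only and 359, 176, 150 and 162 Myog-only cells were left. Members with more than 20 Myog UMIs had a median of 43244 UMIs, above that of either flank. The part of doublets was not tested.

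Both genes of the rule were present at few UMIs in most members, and Myog reached far higher counts in some. Pax7 had a median of 4 UMIs per member (up to 22) and was at exactly 2 UMIs in 123 members, and Myog had a median of 3 (up to 406) and was at exactly 2 in 182. Both were at exactly 2 UMIs in 42 members. Just outside the rule, 639 cells had at least 2 Pax7 UMIs and 1 Myog UMI, and 184 had at least 2 Myog UMIs and 1 Pax7 UMI. By Myog, 182 members had 2 UMIs, 78 had 3 to 5, 70 had 6 to 20 and 76 had more than 20. Summed over members, Myog stood at 557, 310, 652 and 639 counts per 1000000 UMIs (CPM) and Pax7 at 137, 135, 118 and 111. In the Pax7-only cells Pax7 stood at 179 to 225, and in the Myog-only cells Myog stood at 3504 to 4634. Members held more than 100 CPM of Pax7 in every library, but a Myog level far under that of the Myog-only cells. Both genes are in the rule, so these levels follow in part from the choice of cells.

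Numbers this small were also found in cell types without myogenin, and their source, such as free RNA or doublets, was not tested. Of the 2826 Pax7 cells within the limits, 14.4% had at least 2 Myog UMIs, against 8.57% of 245 mural cells (95% Clopper-Pearson interval 5.38 to 12.8) and 3.31% of 181 Schwann cells (1.23 to 7.08), 2 cell types that lack myogenin. Their median totals were 27814, 22485 and 12051 UMIs. After thinning each cell to 5000 UMIs, 12.0% of the Pax7 cells and 10.2% of the mural cells (6.71 to 14.7) had a Myog UMI. At 2 UMIs of Myog, a member was thus not separable from background by Myog alone. At 6 or more UMIs the shares were 5.17% of the Pax7 cells, 1.22% of the mural (0.253 to 3.54) and 1.10% of the Schwann cells (0.134 to 3.93). Within a library the intervals could still meet, as in miR-501KO replicate 1 with 5.11% of the Pax7 and 2.60% of the mural cells (0.316 to 9.07). The cells with the macrophage marker set were higher. In Pax7Cre replicate 1, 5.88% of 102 (2.19 to 12.4) had at least 6 Myog UMIs against 6.24% of the Pax7 cells, in miR-501KO replicate 1 69.2% of 292 did, and over the other 3 libraries 3.29% of 213 did (1.33 to 6.65) against 5.18% of the Pax7 cells. The threshold of 6 thus lay above the pooled mural and Schwann shares and not above that of the macrophage set. All intervals cover counting error only. The main results below are also given for the 146 members with at least 6 Myog UMIs and the 260 with 2 to 5.

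Few members met the marker set of another cell type, although summed mural and fibroblast markers were not low. No member met the marker set of mural cells or of Schwann cells and 1 met that of macrophages (at least 8, 5 and 8 list genes with 2 or more UMIs), against 9, 5 and 2 of the 860 Myog-only cells and 2, 1 and 3 of the 1781 Pax7-only cells. Most of those in the Myog-only cells lay among the 68 Myog-only cells with 2 to 5 Myog UMIs, where 8 were mural, 4 Schwann and 1 macrophage. The 15 macrophage markers, all detected, summed to 21.5, 19.3, 46.5 and 240 CPM in the members, the last raised by 1 cell with 467 macrophage UMIs, and 262 members had no UMI of Lyz2 or the C1q genes. The Schwann genes S100b and Foxd3 and the endothelial genes Cdh5, Emcn and Flt1 were at 0 in the members. The 13 Schwann markers summed to 93.7 to 132 CPM in the members, 133 to 166 in the Pax7-only and 78.3 to 126 in the Myog-only cells. In the tests given below, 3 of 9 Schwann markers were called higher than in Pax7-only cells (log2 fold changes: Sox10 2.48, Erbb3 1.78, Cnp 0.73) and 3 lower. Against Myog-only cells, 2 were higher and 5 lower. The 13 mural markers summed to 1079 to 1171 and the 15 fibroblast and tenocyte markers to 1598 to 1952 CPM, against 1005 to 1123 and 2320 to 2573 in the Pax7-only cells and 790 to 1132 and 616 to 867 in the Myog-only cells. The mural sum was higher in the members than in the Pax7-only cells in 3 of 4 libraries.

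A score of flank genes rose with the Myog UMIs of the members. It was set from 50 genes of each flank, as the log2 ratio of the Myog-only panel to the Pax7-only panel in a cell. Its median was between -2.95 and -2.51 in the Pax7-only cells of the 4 libraries and between 4.0 and 5.44 in the Myog-only cells. In members with 2 Myog UMIs it was between -2.57 and -2.11, with 6 to 20 UMIs between -0.28 and 0.29, and with more than 20 between 0.49 and 2.0. Above the 95th percentile of their library's Pax7-only cells were 23 of the 182 members with 2 Myog UMIs, 18 of 78 with 3 to 5, 45 of 70 with 6 to 20 and 72 of 76 with more than 20. Of those above it, 35 with 6 to 20 and 68 with more than 20 Myog UMIs were also above the 5th percentile of their library's Myog-only cells. In both run 1 libraries this percentile (-1.42 and -2.31) lay below the Pax7-only limit (-0.54 and -1.04), so it added nothing there. In run 2 it lay above that limit. In Pax7Cre replicate 2, 4 of 18 members with 6 to 20 and 6 of 10 with more than 20 Myog UMIs passed it. In miR-501KO replicate 2, 9 of 18 and 13 of 13 did. Of all 406 members, 1 passed the median of the Myog-only cells. The panels were chosen in the flanking cells of the other run. The order is a description, since Myog itself set the bands. Whether the members were a graded series or a mixture of cells was not tested.

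**Figure D1:**
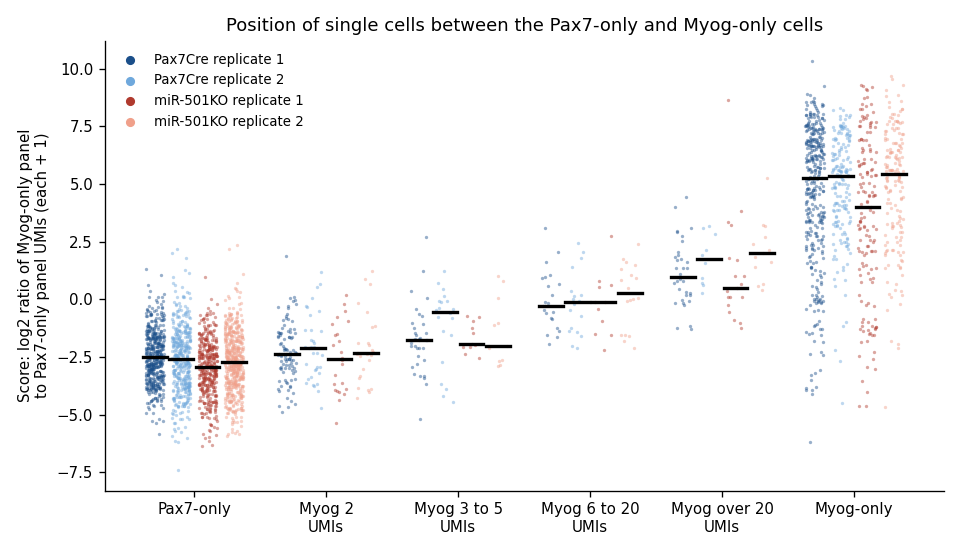
Score of each cell (vertical axis, log2 ratio of panel UMIs, each with 1 added) in the Pax7-only cells, in the members split by Myog UMIs and in the Myog-only cells, coloured by library; black lines are medians. Members with 2 Myog UMIs sit where the Pax7-only cells do, and members with more than 20 have medians of 0.49 to 2.0, below the Myog-only medians. In run 1 the low end of the Myog-only cells overlaps the high end of the Pax7-only cells.

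Expression was tested on UMI sums per library and population, with the 14 genes of the rule left out of the calls (edgeR's quasi-likelihood test, library as a block, Benjamini-Hochberg adjusted p under 0.05). Levels below are CPM, and fold changes are log2 with their standard error (SE). All levels are of 3′ tags and are not compared between genes. Against Pax7-only cells, 999 of 12387 tested genes were higher in the members (8.06%) and 936 were lower (7.56%). Against Myog-only cells, 3286 were higher (26.5%) and 3208 lower (25.9%). With at least 6 Myog UMIs, the members had 1559 higher (12.6%) and 1644 lower genes (13.2% of 12421) than Pax7-only cells. With 2 to 5 Myog UMIs they had 71 (0.57%) and 88 (0.707% of 12449). Of those 71 and 88 genes, 66 and 84 were also called in the same direction at 6 or more UMIs, which is 4.23% and 5.11% of the longer lists. The same Pax7-only cells served both comparisons. The shares over all tested genes are the background for the counts of gene lists below.

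Of 862 genes that differed at least 2-fold (1 log2 unit) between the flanks, 830 (96.3%) stood between them in the members. The genes were chosen by the difference of these flanks in the same fit, so a place between them is favoured by the choice. It cannot tell an intermediate state from a mixture of cells. On the log2 scale, the median gene had gone 0.237 of the way from its Pax7-only to its Myog-only level. It was 0.086 with 2 to 5 Myog UMIs and 0.462 with at least 6. At 6 or more UMIs, the 346 genes higher in Myog-only cells stood at a median of 0.505 of the way and the 509 higher in Pax7-only cells at 0.431. The members were thus nearer to the Pax7-only cells for most of these chosen genes.

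Of the myogenic regulators, 13 of 29 tested were higher and 2 lower than in Pax7-only cells (list median 0.17, all genes -0.01), and 10 were higher and 15 lower than in Myog-only cells (median -0.28, all genes 0.01). Myod1, the determination factor that opens muscle genes, stood at 87.3, 84.1, 119 and 171 CPM in the members. It stood at 25, 32.0, 30.7 and 30.1 in Pax7-only and at 209, 236, 245 and 354 in Myog-only cells, so that the 3 groups of values did not overlap. The log2 fold change was 1.92 (SE 0.12, adjusted p = 4.76e-08) against Pax7-only and -1.31 (SE 0.11, adjusted p = 5.90e-08) against Myog-only cells. It was 1.19 with 2 to 5 Myog UMIs and 2.51 with at least 6. Thinned to 5000 UMIs, 8.87% of Pax7-only cells, 20.4% and 40.4% of members below and from 6 Myog UMIs, 49.0% of Myog-only and 2.04% of mural cells had a Myod1 UMI.

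Myf5, the regulator of the early myoblast, ran the other way. It stood at 211, 152, 146 and 171 CPM in the members, against 321, 296, 310 and 309 in Pax7-only and 24.8, 12.6, 26.2 and 18.7 in Myog-only cells. The members were lower than the first by 0.86 log2 units (SE 0.10) and higher than the second (log2 fold change 2.97, SE 0.12). Rbm24, an RNA-binding protein of muscle splicing, was at 108, 102, 153 and 138 in the members and at 23.6 to 30.4 and 367 to 421 in the flanks (log2 fold change 2.21, SE 0.08, against Pax7-only cells). Hes6, which favours myogenesis against Hes1, was at 106, 76.2, 97.0 and 120, above its 42.8 to 57.2 in Pax7-only and below its 212 to 245 in Myog-only cells. Mef2c, a partner of the myogenic factors, was not called against Pax7-only cells (log2 fold change 0.10, SE 0.31) and was lower than in Myog-only cells (-1.71, SE 0.29).

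In the Notch pathway, the ligand Dll1 was higher and the receptor Notch3 and the target Heyl were lower than in Pax7-only cells. Of 22 tested genes, 2 were higher and 6 lower than in Pax7-only cells (median -0.06), and 9 were higher and 5 lower than in Myog-only cells (median 0.35). Over all tested genes the shares were 8.06% and 7.56%, and 26.5% and 25.9%. The 2 higher than in Pax7-only and the 5 lower than in Myog-only cells were thus near background. Dll1, a ligand that signals to neighbouring cells, stood at 17.4, 21.4, 30.1 and 27.6 CPM in the members, at 4.17 to 5.92 in Pax7-only and at 45.6 to 54.6 in Myog-only cells. Its log2 fold change against Pax7-only cells was 2.12 (SE 0.14), 1.19 with 2 to 5 Myog UMIs and 2.81 with at least 6. The receptor Notch3 stood at 143, 121, 129 and 101, below 190 to 240 in Pax7-only cells (log2 fold change -0.77, SE 0.11) and above 9.05 to 22.4 in Myog-only cells (3.03, SE 0.14). The target Heyl was at 138, 160, 136 and 113, lower than in Pax7-only cells (-0.36, SE 0.08) and higher than in Myog-only cells (2.49, SE 0.10). Jag1, another ligand, was lower than in Pax7-only cells (-1.19, SE 0.15). Notch1 (-0.07, SE 0.06) and the target Hes1 (0.14, SE 0.09) were not called against them. Notch3 is also a mural gene; the defining counts of that marker set in the members are given above.

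Id3, an inhibitor of Myod1, was at 204, 179, 255 and 306 CPM and lower than in Pax7-only cells (-0.54, SE 0.08), while Id1 was not called (0.12, SE 0.08). Of the 33 tested satellite cell markers, none was higher and 18 were lower than in Pax7-only cells (median -0.44; 5 lower at 2 to 5 and 20 at 6 or more Myog UMIs), and 26 were higher and 2 lower than in Myog-only cells (median 0.82). Chodl, a membrane lectin of MuSCs, was at 49.6, 50.7, 41.2 and 58.0, with 92.1 to 178 in Pax7-only and 1.20 to 3.67 in Myog-only cells (log2 fold changes -1.37, SE 0.14, and 4.27, SE 0.25). Nppc, a natriuretic peptide, and Col15a1, a basement membrane collagen, were lower than in Pax7-only cells by 1.81 (SE 0.20) and 1.70 log2 units (SE 0.26). The mean level of Calcr, the calcitonin receptor of quiescent MuSCs, was 2.80 CPM in Pax7-only cells, 0.263 in the members and 0 in Myog-only cells. Spry1, an inhibitor of growth factor signals, was lower than in Pax7-only cells (-0.48, SE 0.10), and the adhesion molecule Cdh15 was not called (-0.19, SE 0.06, adjusted p = 0.051).

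**Figure D2:**
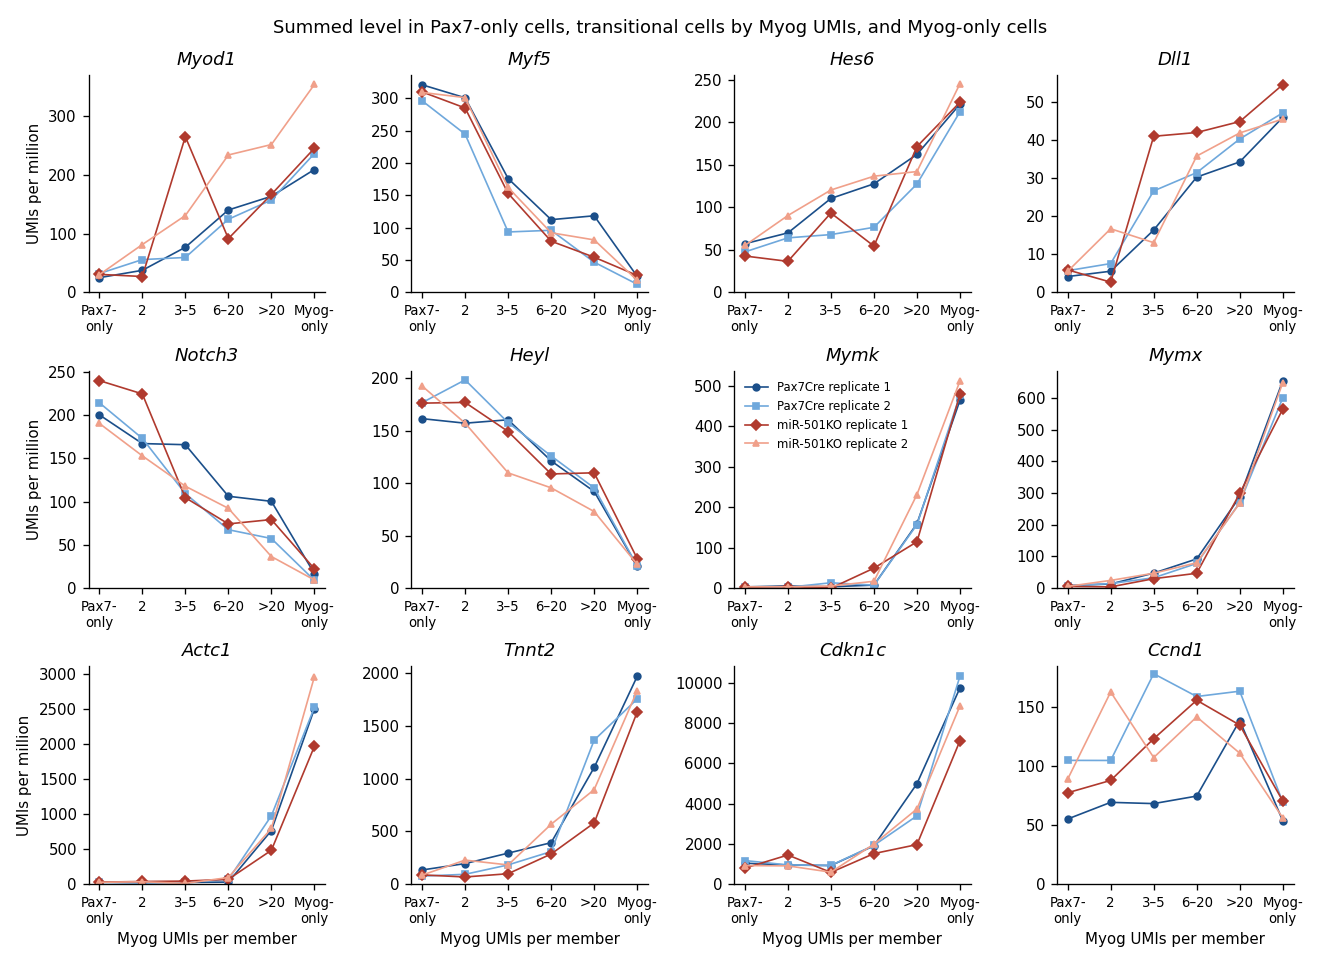
Level of 12 genes (vertical axes, CPM) in the Pax7-only cells, in members with 2, 3 to 5, 6 to 20 and more than 20 Myog UMIs and in the Myog-only cells, 1 line per library. Myf5 and Notch3 are already lower at 3 to 5 Myog UMIs, whereas Mymk and Actc1 are still far below their Myog-only level at more than 20.

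The cell cycle genes of the rule were low by choice in the members and in both flanks, which limits what related genes can show. Of 43 tested replication and mitosis genes outside the rule, none was called in either direction against Pax7-only cells (median 0.03), and 16 were higher and 3 lower than in Myog-only cells (median 0.31). With at least 6 Myog UMIs, 3 of 45 were higher and 2 lower than in Pax7-only cells, under the 12.6% and 13.2% of all tested genes. The licensing factor Cdt1 was higher than in Myog-only cells by a log2 fold change of 1.40 (SE 0.23), and the helicase subunit Mcm3 by 1.01 (SE 0.15). The list of 24 genes around cell-cycle exit also held the D cyclins, Cdk4 and Cdk6, so its counts do not measure exit. Of these 24, 6 were higher and 2 lower than in Pax7-only cells (median 0.06), with Ccnd1 among the higher (0.57). At 6 or more Myog UMIs 8 were higher and 7 lower, with Ccnd2 (-1.54) and Cdkn2d (-1.06) among the lower. None was called at 2 to 5. Cdkn1c (p57), the inhibitor that rises as myoblasts leave the cycle, was at 2010, 1468, 1544 and 1901 CPM in the members, against 788 to 1164 in Pax7-only and 7129 to 10342 in Myog-only cells. Its log2 fold change against Pax7-only cells was 0.83 (SE 0.09) in all members, -0.02 (SE 0.11, not called) with 2 to 5 Myog UMIs and 1.49 (SE 0.10) with at least 6. Against Myog-only cells it was -2.48 (SE 0.09). Cdkn1a (p21), a second inhibitor, was at 115, 158, 163 and 215 and called higher (0.61, SE 0.07), and Rb1, the retinoblastoma protein, was called higher too (0.98, SE 0.10).

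Several genes of fusion and contraction were higher than in Pax7-only cells and lower than in Myog-only cells. Mymk (myomaker) and Mymx (myomixer), the membrane proteins that fuse myoblasts, were among the 5 higher genes of 23 in the fusion and adhesion list, of which 6 were lower than in Pax7-only cells (median -0.06). Mymx stood at 94.1, 66.5, 125 and 109 CPM, against 5.39 to 8.18 in Pax7-only and 564 to 654 in Myog-only cells (log2 fold change 3.82, SE 0.17, against Pax7-only). Mymk stood at 41.7, 27.2, 53.1 and 71.4, against 1.77 to 3.40 and 464 to 512 (4.08, SE 0.21). In members with 2 to 5 Myog UMIs, Mymx was called (1.66, SE 0.18) and Mymk was not (0.82, SE 0.26, adjusted p = 0.17). Thinned to 5000 UMIs, a Mymx UMI was found in 2.53% of Pax7-only cells, 7.69% of members below 6 Myog UMIs, 35.6% from 6, 74.2% of Myog-only and 3.27% of mural cells.

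Of 42 sarcomere genes outside the rule, 22 were higher and 4 lower than in Pax7-only cells (median 0.64), and 2 were higher and 31 lower than in Myog-only cells (median -1.62). With 2 to 5 Myog UMIs 6 of 42 were higher than in Pax7-only cells, and with at least 6 it was 27 of 43. Actc1, the cardiac actin of new muscle, was at 197, 160, 209 and 258 CPM, with 21.5 to 27.5 in Pax7-only and 1971 to 2968 in Myog-only cells. Its log2 fold change against Pax7-only cells was 3.04 (SE 0.11), but -0.13 (SE 0.18, not called) with 2 to 5 Myog UMIs and 4.16 (SE 0.10) with at least 6. The troponin Tnnt2 was at 451, 331, 301 and 486 (2.06, SE 0.10), and Ttn, the giant spring of the sarcomere, at 609, 586, 979 and 849 (1.74, SE 0.09). Ttn was called in both bands, with 0.69 (SE 0.12) at 2 to 5 and 2.42 (SE 0.10) at 6 or more Myog UMIs. Klhl41, which stabilises thin filaments, was higher by 3.02 (SE 0.31). Of 19 excitation and calcium genes 9 were higher and none lower than in Pax7-only cells (median 0.75), Stac3 by 1.72 (SE 0.13).

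Of 10 acetylcholine receptor and synapse genes, 5 were higher and none lower than in Pax7-only cells (median 1.17). The receptor subunit Chrna1 was at 441, 404, 410 and 508 CPM, between 184 to 228 and 730 to 805 (log2 fold changes 1.12, SE 0.06, and -0.90, SE 0.06). Dok7, which drives clustering of the receptor, stood at a mean of 0.623 in Pax7-only cells, 12.2 in the members and 57.5 in Myog-only cells (4.22, SE 0.28). Chrna1 and Tnnt2 are shown with their promoters because both moved with Myog and hold the E-box CAGCTG, a palindrome of the kind that myogenic factors bind. The promoters are the 250 bases before and 50 after a RefSeq start site on GRCm38.p6, with each CAGCTG in capitals. That of Chrna1 is on the minus strand of chr2:73580289-73580588 and that of Tnnt2 on the plus strand of chr1:135836084-135836383; Tnnt2 has a second start site whose window holds none.
Chrna1: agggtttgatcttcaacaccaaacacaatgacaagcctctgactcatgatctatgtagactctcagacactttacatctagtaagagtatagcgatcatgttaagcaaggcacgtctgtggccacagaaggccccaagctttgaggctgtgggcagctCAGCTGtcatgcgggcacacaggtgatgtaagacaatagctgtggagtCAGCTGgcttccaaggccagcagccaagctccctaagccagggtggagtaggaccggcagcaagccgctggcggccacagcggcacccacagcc
Tnnt2: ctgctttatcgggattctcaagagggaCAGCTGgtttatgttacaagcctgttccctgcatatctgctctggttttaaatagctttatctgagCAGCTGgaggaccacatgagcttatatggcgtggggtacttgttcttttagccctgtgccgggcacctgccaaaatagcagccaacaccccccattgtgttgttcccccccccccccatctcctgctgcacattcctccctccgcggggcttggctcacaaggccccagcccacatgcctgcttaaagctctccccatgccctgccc

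Each window holds 2 matches. The motif stood in a promoter window of 18.3% of 27025 genes of the table and 18.1% of 9369 tested genes with a window. It stood in 23.2% of 793 genes called higher in the members than in Pax7-only cells and in 21.3% of 717 called lower. It was not in the windows of Myog, Actc1 or Ttn. A match is a description of these letters, not of binding.

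Away from muscle genes, most called genes of the matrix, early response and interferon lists were lower than in Pax7-only cells and higher than in Myog-only cells. Of 30 matrix genes 15 were lower and 2 higher than in Pax7-only cells (median -0.28), and 26 were higher and 1 lower than in Myog-only cells (median 1.56). Col4a1, a basement membrane collagen, was lower than in the first (-1.02, SE 0.12) and higher than in the second (2.13, SE 0.14), and the crosslinker Lox was higher than in the second (2.16, SE 0.08). Of 24 immediate early genes 19 were lower and none higher than in Pax7-only cells (median -0.39), Ier3 by 0.98 (SE 0.21) and Zfp36, which destabilises messenger RNA, by 0.74 log2 units (SE 0.13). Of 31 interferon genes 7 were lower than in Pax7-only cells (median -0.35) and 22 were higher than in Myog-only cells (median 1.17), among them the chemokine Cxcl10 (2.96, SE 0.46). With 2 to 5 Myog UMIs, 3 matrix, 1 immediate early and no interferon genes were called lower than in Pax7-only cells by edgeR, and with at least 6 they numbered 24, 21 and 13. Clcn5, whose intron holds miR-501, was at 167, 179, 205 and 164 CPM, lower than in Pax7-only (-0.26, SE 0.05) and higher than in Myog-only cells (0.76, SE 0.05).

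By size of change, other genes that led the comparison with Pax7-only cells were Fndc5 (2.32, SE 0.21), the precursor of irisin, and Arpp21 (2.13, SE 0.12), an RNA-binding phosphoprotein. Lower ones were Prelp (-1.58, SE 0.21), a matrix proteoglycan, Dpt (-1.51, SE 0.32), dermatopontin, and Edn3 (-1.44, SE 0.18), an endothelin. Against Myog-only cells, higher ones were Iqgap2 (3.75, SE 0.17), a scaffold of the cytoskeleton, and Pxdc1 (3.03, SE 0.19). Frmd4b (-3.97, SE 0.14), the Z-disc protein Csrp3 (-3.81, SE 0.20), the matrix protein Spon1 (-3.79, SE 0.25), the scaffold Homer2 (-3.78, SE 0.24) and Shisal1 (-3.62, SE 0.21) were among the lowest.

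The genes did not change at the same Myog level. On a linear scale, with the Pax7-only mean as 0% and the Myog-only mean as 100%, Myf5 had gone 9.07% of the way in members with 2 Myog UMIs, 56.5% with 3 to 5, 74.2% with 6 to 20 and 81.1% with more than 20. Dll1 had gone 6.53%, 44.1%, 68.8% and 81.4%, and Chodl 29.1%, 83.4%, 87.0% and 82.4%. Chrna1 followed with 4.02%, 33.4%, 64.1% and 92.9%, and Heyl with 2.83%, 21.2%, 41.6% and 54.8%. Ttn had gone 10.6% at 3 to 5, 35.4% at 6 to 20 and 74.7% above 20, and Tnnt2 5.50%, 17.2% and 52.4%.

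On this linear scale, several fusion and contraction genes lay near their Pax7-only end up to 20 Myog UMIs. Mymx stood at 5.33%, 11.1% and 45% of the way at 3 to 5, 6 to 20 and above 20, Mymk at 0.583%, 3.68% and 33.9%, and Actc1 at 0.0175%, 1.53% and 29.6%. Cdkn1c stood at -2.80%, 10.6% and 31.6%. In levels, Actc1 was at 24.7 ± 2.63 CPM in Pax7-only cells, 25.1 ± 13.8 at 3 to 5, 62.5 ± 27.1 at 6 to 20 and 755 ± 204 above 20 (SD, n = 4 libraries). Myf5 was at 309 ± 10.1, 146 ± 36.4, 94.9 ± 13.7 and 75.2 ± 32.4. The order depends in part on the scale. On the log2 scale (1 CPM added), members with 3 to 5 Myog UMIs had gone 28.0% of the way for Myf5, 67.5% for Dll1, 44.5% for Chodl, 37.6% for Mymx, 11.6% for Mymk and 0.365% for Actc1, and with 6 to 20 UMIs 44.0%, 84.5%, 50.1%, 51.9%, 36.0% and 19.8%. Dll1 and Chodl were thus ahead of Mymk and Actc1 on both scales at 3 to 20 Myog UMIs, as was Myf5, whereas Mymx was behind Myf5 on the linear and ahead of it on the log2 scale. This order is given as a description, with no test, since Myog set the bands and cells of 1 library share their source.

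**Figure D3:**
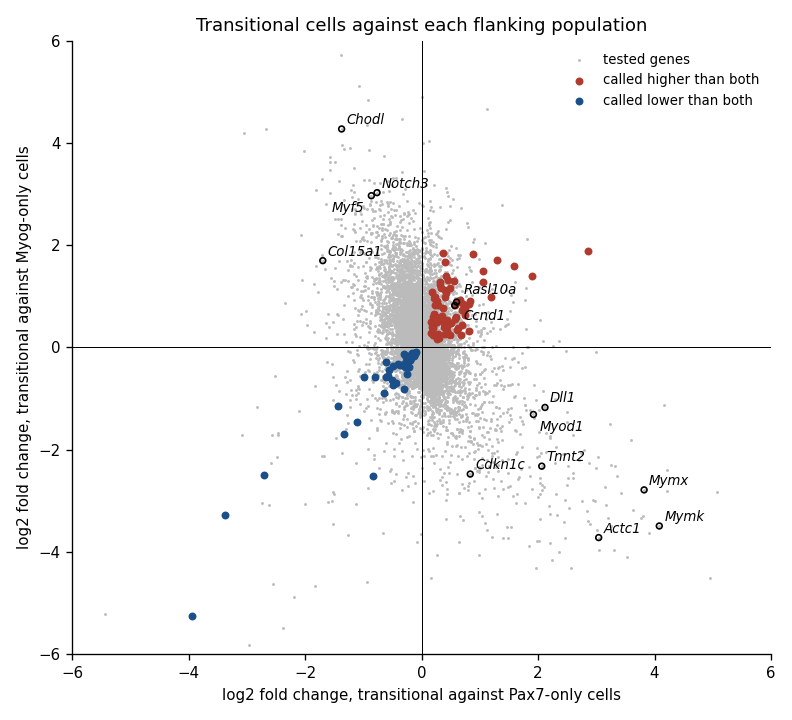
Log2 fold change of the members against Pax7-only cells (horizontal) and against Myog-only cells (vertical) for the tested genes; 7 of 12387 lie outside the axes. Red and blue points are the 73 and 42 genes called higher or lower than both flanks, and most named genes lie in the upper left or lower right, between the flanks.

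A gene may also be higher or lower in the members than in both flanks. This held for 73 genes that were higher (0.589% of those tested) and 42 that were lower (0.339%). In the members with at least 6 Myog UMIs, 98 genes were higher (0.789%) and 62 lower (0.499%), and 46 of the higher genes were in both lists, 63.0% of the 73 and 46.9% of the 98. Ccnd1 (cyclin D1), which carries growth signals to the cycle, was at 86.0, 141, 122 and 135 CPM in the members. It was at 55.1, 105, 77.3 and 88.8 in Pax7-only and 53.6, 69.5, 70.4 and 56.1 in Myog-only cells, and the members were highest in all 4 libraries. Its log2 fold changes were 0.57 (SE 0.09) and 0.82 (SE 0.10), and 0.75 and 1.02 with at least 6 Myog UMIs.

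Soat1, which makes cholesterol esters, was at 183, 184, 217 and 160, with 112 to 138 in Pax7-only and 103 to 140 in Myog-only cells, and the groups did not overlap (0.57, SE 0.06, and 0.56, SE 0.06). Rasl10a, a small GTPase, was at 26.3, 28.4, 24.4 and 23.8, against 13.8 to 20.6 and 9.80 to 20.4 (0.60, SE 0.13, and 0.89, SE 0.14). The other higher genes with the largest smaller change were Edil3, an integrin ligand, the transcription factor Maf, AI467606, Mfap3l, Igfbp6, a binding protein of insulin-like growth factors, Tes and Arhgap22, with 0.41 to 0.68 against Pax7-only cells. With at least 6 Myog UMIs, Igfbp2 (1.10, SE 0.24, and 0.88, SE 0.25), Tafa5 (1.42, SE 0.17, and 0.59, SE 0.17) and the smooth muscle light chain Myl9 (1.01, SE 0.11, and 0.58, SE 0.11) joined the 10 largest, with Abhd8 and BC034090.

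Of the lower genes, Klf9, a transcription factor induced by glucocorticoids, was at 116, 135, 131 and 122 CPM. It was at 164, 201, 210 and 203 in Pax7-only and 121, 172, 157 and 126 in Myog-only cells (-0.62, SE 0.06, and -0.29, SE 0.06), so that the members were lowest in each library although the ranges met. Cux1 (-0.28, SE 0.06, and -0.31, SE 0.06), Zfp651, Irf2bp2, Nop58, Midn, Nfyb, Nab1, Dnttip2 and Tor1aip1 completed the 10, with changes of -0.49 to -0.21 against Pax7-only cells. With at least 6 Myog UMIs, Lyz2, a macrophage enzyme, led that list (-3.38, SE 0.46, and -2.34, SE 0.51). It stood at 4.53 to 8.80 in those members, against 8.37 to 131 in Pax7-only and 6.02 to 70.0 in Myog-only cells. Igf2, a growth factor of muscle, was lower than both in that band (-0.69, SE 0.18, and -0.51, SE 0.19) but was not called against Myog-only cells in all members (-0.22, SE 0.13, adjusted p = 0.16).

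To set cells of like Myog side by side, members and Myog-only cells with 6 to 50 Myog UMIs were compared. Of 8938 genes, 162 were higher (1.81%) and 123 lower (1.38%) in the members. Actc1 (-2.14, SE 0.18), Mymk (-1.79, SE 0.25), Rb1 (-1.52, SE 0.22), Cdkn1c (-1.43, SE 0.07), Myl4, an embryonic light chain (-1.24, SE 0.20), and Mymx (-1.03, SE 0.13) were still lower, and Iqgap2 (1.76, SE 0.35), Notch3 (0.92, SE 0.15) and Heyl (0.66, SE 0.13) still higher. Myod1 (0.02, SE 0.12), Hes6 (0.06, SE 0.12), Chrna1 (-0.09, SE 0.09), Ttn (-0.19, SE 0.13), Dll1 (-0.34, SE 0.20) and Tnnt2 (-0.37, SE 0.13) were not called, which does not show equal levels. The match was not complete: Myog stood at 539, 428, 521 and 432 CPM in these members and at 1058, 730, 1126 and 930 in these Myog-only cells. The cells also differed in depth, with median totals of 33962, 32324.5, 36320 and 35182 UMIs in 38, 24, 22 and 22 members. The 79, 21, 39 and 27 Myog-only cells had medians of 22404, 29933, 16656 and 25058. The part of Myog level, depth and cell numbers in the differences was not tested.

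The share of transitional cells was lower in both miR-501KO libraries. Of the kept cells, 6.12% (95% Clopper-Pearson interval 5.30 to 7.03) and 4.80% (3.84 to 5.92) were transitional in Pax7Cre replicates 1 and 2, and 2.39% (1.85 to 3.03) and 3.33% (2.60 to 4.19) in miR-501KO replicates 1 and 2. The group means were 5.46% ± 0.936 and 2.86% ± 0.664 (SD, n = 2), and the groups did not overlap. The difference of -2.61 percentage points had p = 0.33 in a two-sided exact permutation test, the smallest p that 2 against 2 libraries can give, so no difference could be called. It was -3.74 points in run 1 and -1.47 in run 2.

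The difference lay mainly in members with few Myog UMIs. Members with 2 to 5 Myog UMIs made up 4.28%, 3.18%, 1.29% and 1.83% of the kept cells, and those with at least 6 made up 1.85%, 1.62%, 1.10% and 1.49%, a difference of -0.435 points. Of the Pax7 cells within the limits, 20.7%, 13.0%, 11.1% and 10.0% were members. Members with at least 6 Myog UMIs were 6.24%, 4.39%, 5.11% and 4.51% of them, and the groups overlapped. The mural cells, which lack myogenin, had at least 2 Myog UMIs in 13.5%, 0%, 7.79% and 0% (of 111, 20, 77 and 37 cells; 0 of 20 allows up to 16.8% and 0 of 37 up to 9.49% by the exact interval). The Schwann cells did so in 4.55%, 3.70%, 8.11% and 0%, so the order of the libraries differed between these background cell types, and their intervals overlapped. Thinned to 5000 UMIs, the difference was -0.0609 points, with 11 cells left. In miR-501KO replicate 1, 72.3% of the 292 barcodes with the macrophage set had at least 2 Myog UMIs, and the exclusion of Cd74 took that library from 221 to 106 cells with both genes. The part of these in the share was not tested.

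**Figure D4:**
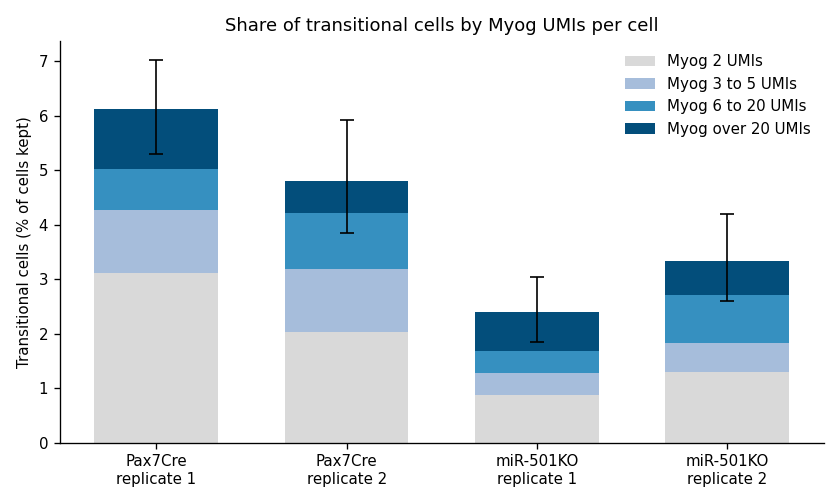
Transitional cells as a percentage of the kept cells in each library (bars from 0, split by Myog UMIs per cell); error bars are 95% Clopper-Pearson intervals of the whole share. The bars reach 6.12%, 4.80%, 2.39% and 3.33%, and the parts with 2 to 5 Myog UMIs differ more between groups than those with at least 6.

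Between genotypes, no gene was called in the members. Of 10377 tested genes, 0 passed (0%) in edgeR's quasi-likelihood test on 2 against 2 sums, with 376 at an unadjusted p under 0.05, and DESeq2 called 2 (0.0193%), Myl1 and Hspa1b. With the run as a replicate block, 30 genes passed (0.289%), 28 higher and 2 lower in miR-501KO. That fit had nearly as many terms as sums, and deviations of same-run libraries correlated at only -0.0203, so its calls and p-values need caution. In simulated data of this size the unblocked test found 54.5% of genes changed 2-fold and 85.5% of those changed 4-fold. Of its calls, 8.40% and 7.57% were false. The simulation drew counts independently and held no differences in the make-up of the members, so this recovery may not hold for the real libraries. Within the block, the higher genes included the muscle genes Myl1, Ckm, Tnni2, Klhl41, Mef2c and Mymk and the heat shock genes Hspa1a and Hspa1b. They also included the macrophage genes Lyz2, C1qb, C1qc and Fcer1g and the interferon genes Ifit3, Ifit3b, Iigp1, Gbp3, Gbp5 and Rsad2. The macrophage markers summed to 21.5 and 19.3 CPM in the Pax7Cre and 46.5 and 240 in the miR-501KO members, and their part in these calls was not tested.

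Myl1, a fast light chain of myosin, stood at 75.1, 42.5, 162 and 141 CPM in the members, higher in miR-501KO in both runs (log2 fold change 1.31, SE 0.23, adjusted p = 0.371, and 1.38 with the block, adjusted p = 1.81e-07). Ckm, the muscle creatine kinase, was at 12.0, 12.0, 33.2 and 25.7 (1.26, SE 0.23, adjusted p = 0.371, and 0.00233 with the block). Hspa1b was at 47.5, 28.7, 108 and 79.5 (1.24, SE 0.23). Lyz2 was at 8.08, 8.79, 15.5 and 125, the last in the library that holds the member with 467 macrophage UMIs, and its direction turned among members with at least 6 Myog UMIs. Myod1 was at 87.3, 84.1, 119 and 171 (0.75, SE 0.19, adjusted p = 0.82), and Clcn5 did not separate the groups (0.07, SE 0.15). Esrrg, a nuclear receptor, was at 0 to 0.443 in every library and was not tested.

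Beside these values stands the make-up of the members. Members with at least 6 Myog UMIs were 30.2% and 33.7% of the members in Pax7Cre and 46.2% and 44.9% in miR-501KO, and Myog itself was at 557, 310, 652 and 639 CPM. Among members with at least 6 Myog UMIs, 0 of 8594 genes were called by edgeR (257 at an unadjusted p under 0.05), and Myl1 had a log2 fold change of 1.31 (SE 0.31, adjusted p = 0.598). Fewer such cells and less RNA per cell cannot be told apart in these sums. The 4 pools also cannot separate the deletion from other differences between the animals of a run.

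The difference between genotypes was then compared between populations, as an interaction. It was unlike that of the Myog-only cells for 1 of 11775 genes (0.00849%) and unlike that of the Pax7-only cells for 5 of 12565 (0.0398%), with 537 and 925 genes at an unadjusted p under 0.05. Myl1 differed from the Myog-only cells (310, 192, 333 and 314 CPM) by an interaction of 1.0 log2 units (SE 0.12, adjusted p = 0.0199), a call lost with at least 6 Myog UMIs and in cells of 20000 to 50000 UMIs. Ttn stood at 227, 204, 251 and 203 in Pax7-only cells and at 609, 586, 979 and 849 in the members, an interaction of 0.60 (SE 0.07, adjusted p = 7.92e-05). Mymx (1.13, SE 0.20) and the slow troponin Tnnt1 (0.91, SE 0.12) were also higher in the interaction. The mural gene Rgs5 (3.07, SE 0.40) stood at 18.0, 28.1, 5.39 and 3.03 in Pax7-only cells and at 5.39, 4.69, 8.41 and 7.30 in the members, and the groups did not overlap in either population. Pax7-only cells with the mural marker set numbered 1 and 1 in the Pax7Cre and 0 and 0 in the miR-501KO libraries, and their part in this value was not tested. Timp3, an inhibitor of matrix proteases, was lower (-0.50, SE 0.09). In cells with no macrophage UMIs none of these 5 was called (0 of 11750, 670 at an unadjusted p under 0.05), and neither was any with 2 to 5 Myog UMIs (0 of 12352, 492 at that p), where the interaction of Ttn was -0.27.

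**Figure D5:**
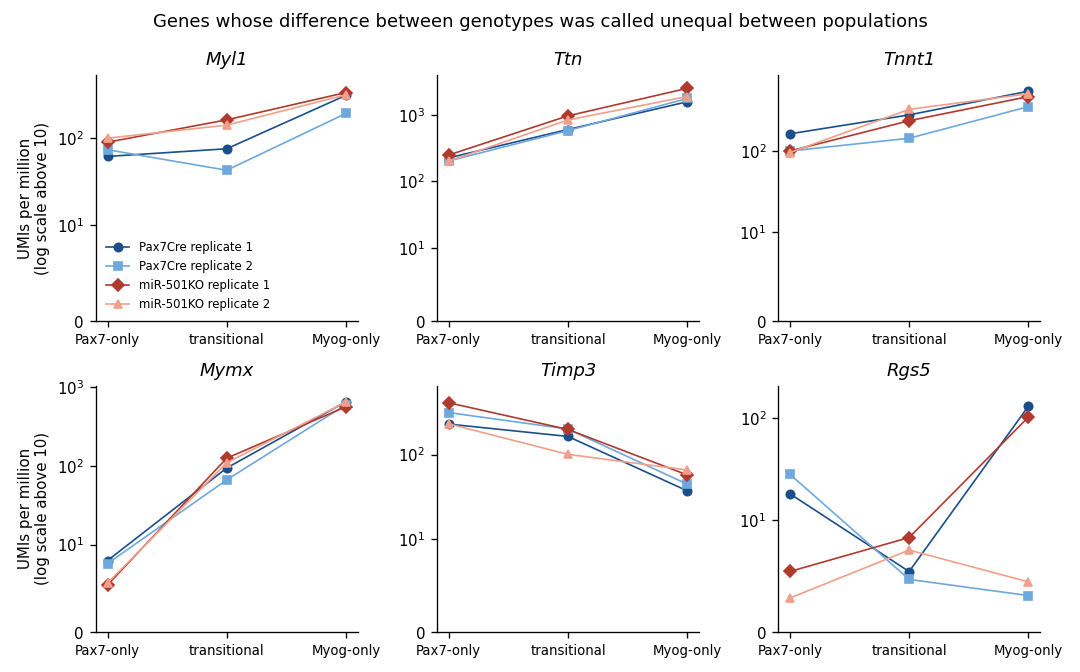
Level of the 6 genes with a called interaction (vertical axes, CPM, log scale above 10 and linear below) in the Pax7-only, transitional and Myog-only cells, 1 line per library. For Myl1 and Ttn both miR-501KO libraries lie above both Pax7Cre libraries in the transitional cells, and for Rgs5 the libraries part in the Pax7-only cells.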

How the data were processed

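Single-cell RNA sequencing of sorted myogenic progenitors was analysed in 4 libraries (2 per genotype, replicate number = run, each a pool of 3 mice). The deposited files hold raw counts of UMIs per gene and barcode, made by the authors with Cell Ranger (version 6.0.2 per the file headers) from a Chromium 3′ v3.1 kit; the submitters' processing notes name GRCm39, while sequences shown here are from RefSeq on GRCm38.p6. Nothing in these values was normalized or integrated. Cells were kept at 5000 UMIs, 1000 genes and at most 10% mitochondrial UMIs; no doublet caller was run. The members and gene lists were chosen with earlier results of these data known.

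UMIs were summed per library and population and tested with edgeR 4.0.16 (R 4.3.3; TMM, filterByExpr, quasi-likelihood, Benjamini-Hochberg 0.05): 12 sums with library as a block between populations, 4 sums between genotypes, and interactions; DESeq2 1.42.0 was an alternative. The 14 rule genes enter no call. Totals were 73665012 to 117527749 UMIs per library. Between genotypes, p-values measure the spread between pools, and 2 pools per genotype are few. Between populations and in the interactions, where library is a block, they measure how population differences vary between libraries. Shares were compared by an exact permutation test (Python 3.11.15, scipy 1.17.1). Thinning drew 5000 UMIs per cell. On simulated data, 82% and 83% of genes changed 2-fold were recovered against Pax7-only and Myog-only cells, with 6.29% and 7.26% of the calls false.

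Named genes were 31 fixed regulators and markers, up to 6 per direction and comparison with the largest change among called genes (20 CPM in 1 population, same direction in all libraries), 10 per direction beyond both flanks by the smaller change, and up to 4 leading members of a list. Other genes were named after their values were seen. H19 is not analysed here, and 2 genes that the rule picks are not reported here. Lists of 24 kinds were counted. Those of other cell types are given by their summed levels, with calls added for the Schwann markers. The runs pair the genotypes by the labels; deviations of same-run libraries correlated at -0.0203 over 10390 genes. Both replicate pairs varied beyond counting noise (chi-square divided by its degrees of freedom, 4.87 and 5.74).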

Additional observations from a re-analysis of the deposited data

Results flagged for a closer look

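Each of these 6 genes had a difference between genotypes in the transitional cells that was unlike that in a flanking population, by the test of the interaction (edgeR's quasi-likelihood test, 8 sums). Against the Myog-only cells, Myl1 had an interaction of 1.0 log2 units (SE 0.12, adjusted p = 0.0199), with levels of 75.1, 42.5, 162 and 141 CPM in Pax7Cre replicates 1 and 2 and miR-501KO replicates 1 and 2. Against the Pax7-only cells, the interaction was 0.60 for Ttn (adjusted p = 7.92e-05), 0.91 for Tnnt1 (adjusted p = 0.000205; 285, 146, 241 and 334 in the members), 1.13 for Mymx (adjusted p = 0.0166; 94.1, 66.5, 125 and 109), 3.07 for Rgs5 (adjusted p = 0.0002; 5.39, 4.69, 8.41 and 7.30) and -0.50 for Timp3 (adjusted p = 0.0391; 164, 201, 199 and 101). The Tnnt1 values of the genotypes overlapped in the members, and those of Timp3 did too. Members with at least 6 Myog UMIs were a larger part of the members in miR-501KO, as the report gives, and the part of this in the interactions was not tested. With at least 6 Myog UMIs the calls of Myl1, Mymx and Timp3 were lost, and with 2 to 5 all 6 were. In cells of 20000 to 50000 UMIs, only Tnnt1 kept its call, and in cells with no macrophage UMIs only Myl1 did, with Rgs5 at 0.09. DESeq2 did not call Mymx or Timp3, Mymx was not called without Pax7Cre replicate 2, and Timp3 was not called without Pax7Cre replicate 1 or with RLE size factors.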

How the results depend on the processing

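The difference in share was negative in every alternative run, from -6.59 points (at least 1 UMI of each gene) to -0.0609 (thinned, where the groups overlapped). It was between -3.27 and -1.94 without 1 library. The alternatives largely reuse the same cells. Against Pax7-only cells, 1935 genes were called. The count was 786 without the library block, 1058 in cells of 20000 to 50000 UMIs, 1100 in cells with no macrophage UMIs, 3203 and 159 with at least 6 and 2 to 5 Myog UMIs, and 1197 to 1562 without 1 library, the lowest without miR-501KO replicate 2. Against Myog-only cells, 6494 became 3919 with at least 6 Myog UMIs, 285 with 6 to 50 in both, and 5366 to 6108 without 1 library. Genes higher than both flanks (73) numbered 42 in DESeq2, 12 without the library block, 39 with no macrophage UMIs, 9 with 2 to 5 and 19 with 6 to 50 Myog UMIs, and 33 to 59 without 1 library. Genes lower than both (42) numbered 25 in DESeq2, 81 with no filter on low counts, 9 without the block, 21 in the band of UMIs, 10 with no macrophage UMIs, 6 with 2 to 5 and 12 with 6 to 50 Myog UMIs, and 17 to 33 without 1 library.

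Between genotypes, 0 genes became 2 in DESeq2, 49 with no filter, 30 with the run as a replicate block (the pairing of the runs), 1 each without the deepest 5% of cells, with no macrophage UMIs and with 2 to 5 Myog UMIs, and 16 to 65 without 1 library, where the lone library is assumed to vary like the others. The interaction with Myog-only cells (1 gene) gave 3 with RLE size factors, 3 in DESeq2, 66 with no filter, 6 in the band of UMIs, 2 with no macrophage UMIs, 3 with 2 to 5 Myog UMIs and 17 to 80 without 1 library. That with Pax7-only cells (5) gave 3 in DESeq2, 80 with no filter, 0 with no macrophage UMIs, 11 with at least 6 and 0 with 2 to 5 Myog UMIs, and 29 to 123 without 1 library. The interactions with a replicate block were not run.

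Of the named genes' tested values, 12 changed sign. With Myog 6 to 50 in both, against Myog-only cells, these were Myod1 (0.024), Hes6 (0.059), Col15a1 (-0.068), Nppc (-0.29), Ier3 (-0.72) and Zfp36 (-1.03). With 2 to 5 Myog UMIs they were Cdkn1c (-0.024) and Actc1 (-0.13) against Pax7-only cells and Ttn between genotypes (-0.26) and in the interaction (-0.27). Hes1 was -0.12 against Pax7-only cells with no macrophage UMIs, and Lyz2 was -0.13 between genotypes with at least 6 Myog UMIs. The causes were not tested. Mural cells, which lack myogenin, also reach 2 to 5 Myog UMIs. Alternatives on the Myog bands, on 6 to 50 UMIs and on the Pax7 denominator were chosen after seeing the data.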
